A study of Mus musculus with 6 samples.

Results

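The collagen genes are those whose symbol starts with Col, a number, the letter a and a second number. The symbol pattern matched 37 of the 19571 genes of the table. Of these, 36 encode collagen chains. The other, Col4a3bp, encodes a ceramide transfer protein named after a collagen, and it is left out of all counts; its log2 fold change was -0.08 ± 0.27 (standard error, SE) with adjusted p = 0.942 per the authors' deposited table. GENCODE M21 annotates 44 mouse genes of these collagen types, and 8 of them (Col4a3, Col4a6, Col8a1, Col9a1, Col10a1, Col19a1, Col24a1 and Col28a1) are not analysed here.

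Total RNA was sequenced from E14 cells, a male mouse embryonic stem cell line, grown on gelatin with LIF and serum. It compares 3 samples of Dot1L-/- cells, made with CRISPR/Cas9 and called Dot1l KO below with 3 samples of wild type (WT) cells. Both genotypes had the same culture conditions and carry the age label day 14, without a stated starting point. The labels speak of knock-out cell lines, but do not say which line or clone a sample came from or whether samples were separate cultures, so the p-values measure only the spread between these samples, which may be technical. Dot1l is the enzyme gene for methylation of histone H3 at lysine 79. Its own RNA had a log2 fold change of -0.16 ± 0.25 with adjusted p = 0.845 per the authors' deposited table, so the transcript level does not check the genotype labels.

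The gene table gives, for each gene, the mean normalized count over all 6 libraries, a log2 fold change with its SE, and a Wald p-value with its adjustment over all genes. It holds no values per sample, so the value in each library, the depth of the libraries and the overlap of the groups cannot be given. The table does not name the genotype that a positive value favours. A positive value was taken to mean more RNA in Dot1l KO, because published work describes retroviral MERVL elements as repressed by Dot1l in such cells and the MERVL-int subfamily had a log2 fold change of 1.96 ± 0.38 per the authors' deposited table of element subfamilies. This assumes that the gene table has the same sign as the element table. With the opposite sign, all directions below would be reversed, and the implied levels, shares and sums of WT and Dot1l KO would be exchanged. Rose and fell are used for an adjusted p under 0.05. Levels per genotype are implied values, worked out from the mean and the fold change under equal group sizes, and carry no error of their own. The sum of the means was about 36042647 normalized counts. All 8 embryonic stem cell markers that were checked, among them Pou5f1, Nanog and Sox2, were abundant, with a lowest mean of 5956. In the authors' DESeq2 test 0 rose or fell, also 0 at an unadjusted p under 0.05. At that p, 2078 of all 19564 genes tested were positive and 1085 negative. Only 2.51% of all genes with a mean of at least 1000 rose or fell. The count of 0 among 8 therefore does not show an unchanged stem cell state.

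Collagens are secreted proteins of 3 chains wound into a triple helix. Fibrillar collagens form the rope-like fibres of connective tissue, type IV chains form the sheet of basement membranes, type VI chains form beaded filaments, and other classes decorate fibrils, span the cell membrane or anchor epithelia. In the early mouse embryo, type IV collagen is a main product of primitive endoderm and its parietal descendants, which lay down a thick basement membrane.

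In Dot1l KO, 13 of the 36 collagen genes rose and 1, Col18a1, fell, while 22 did not pass. The rises covered 6 of 10 fibrillar genes, 2 of 4 type IV genes and 3 of 6 type VI genes, plus Col15a1 and Col26a1. Beside this, 5.34% of all genes tested rose and 1.25% fell, 6.58% in either direction. The median log2 fold change was 1.21 over the collagen genes and -0.02 over all genes. A positive value was found for 32 of the 36 collagen genes and for 48.6% of all genes; 4 of these signs turn when fold changes are centred within bins of mean count, namely those of Col9a2, Col8a2, Col6a2 and Col23a1, of which Col9a2 becomes positive.

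Rises in this comparison were more frequent among weakly expressed genes, and most collagen genes are weakly expressed here. Below the table's median mean of 278 normalized counts, 9 of 27 collagen genes rose and 0 fell, against 9.24% and 0.593% of all such genes, 9.84% in either direction. At an unadjusted p under 0.05 also 0 of the 27 were negative, against 229 of all 9781 such genes. At or above it, 4 of 9 collagen genes rose and 1 fell, against 1.43% and 1.9% of all such genes, 3.33% in either direction. Among genes with a mean of at least 50, 9 of 23 collagen genes rose and 1 fell, against 4.03% and 1.77% of all such genes, 5.8% in either direction. When all genes were split by mean count into 20 bins, the median fold change was 0.64 in the bin of lowest counts and -0.20 in that of highest counts. With fold changes centred within those bins, 10 collagen genes rose and 0 fell. A gene with almost no reads in WT can only enter the table through its reads in Dot1l KO, so the counts among weak members are a description of the members listed and not of all collagen genes.

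**Figure D1:**
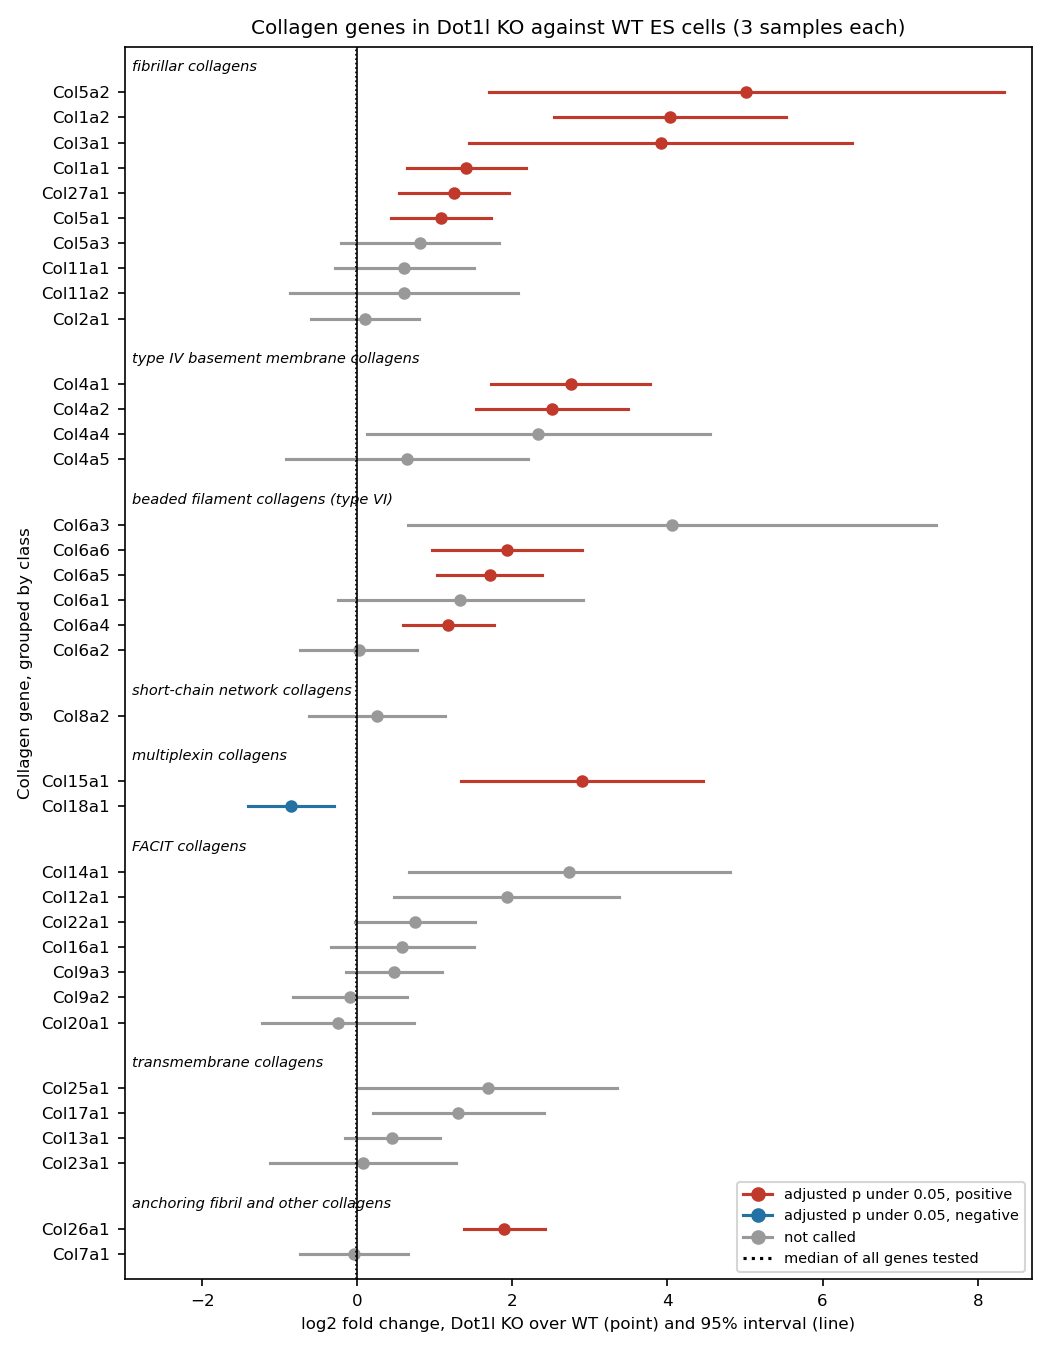
Log2 fold change (Dot1l KO over WT, x axis) of each of the 36 collagen genes, grouped by class, with points for the estimate and lines for its 95% interval. The 13 genes in red rose, Col18a1 in blue fell, and the dotted line at -0.02 is the median of all genes tested.

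**Figure D2:**
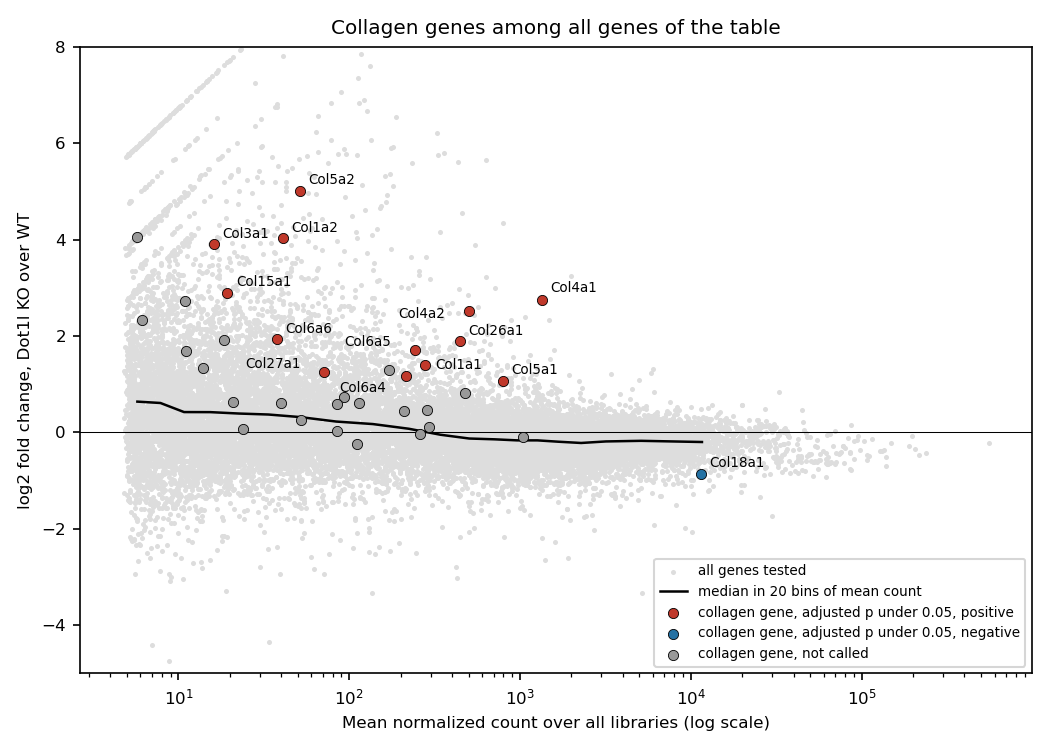
Mean normalized count over all libraries (x axis, log scale) against log2 fold change (y axis) for all genes tested in grey and the collagen genes in colour, with the median in 20 bins of mean count as a black line. The axis runs from -5 to 8 and leaves out 7 genes, none of them a collagen. The 13 red points stand above the black line, and Col18a1, in blue at a mean of 11428, stands below it.

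Both chains of the common type IV collagen rose, by similar amounts. Col4a1 (chromosome 8, 11198423 to 11312826 in mm10) and Col4a2 (chromosome 8, 11312805 to 11449287) encode the chains of the common basement membrane trimer. Both genes are read from 1 shared promoter in opposite directions. Their annotated start sites lie 21 bases apart and their first exons overlap by 22 bases. Without strand in the counting, a read that touches both exons fits either gene by position. How such reads were counted is not known here. The overlap is 0.295% of the exon bases of Col4a1 and 0.332% of those of Col4a2. The windows around both start sites, from 250 bases before to 50 after, are shown because this pair shares its promoter. They are RefSeq sequences of GRCm38.p6, the assembly of mm10, read 5′ to 3′ on the strand of each gene. Capitals mark exact matches on either strand to a CCAAT box. The same holds for a GC box, written GGGCGG. It holds as well for a TATA box, written TATAAA, and for a GATA motif, written AGATAA.
Col4a1, chr8:11312777-11313076, minus strand: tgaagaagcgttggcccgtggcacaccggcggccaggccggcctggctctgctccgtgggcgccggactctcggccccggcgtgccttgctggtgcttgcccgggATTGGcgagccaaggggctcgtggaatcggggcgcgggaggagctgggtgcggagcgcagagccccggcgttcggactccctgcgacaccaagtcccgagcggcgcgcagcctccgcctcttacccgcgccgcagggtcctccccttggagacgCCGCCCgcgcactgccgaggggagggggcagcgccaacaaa
Col4a2, chr8:11312555-11312854, plus strand: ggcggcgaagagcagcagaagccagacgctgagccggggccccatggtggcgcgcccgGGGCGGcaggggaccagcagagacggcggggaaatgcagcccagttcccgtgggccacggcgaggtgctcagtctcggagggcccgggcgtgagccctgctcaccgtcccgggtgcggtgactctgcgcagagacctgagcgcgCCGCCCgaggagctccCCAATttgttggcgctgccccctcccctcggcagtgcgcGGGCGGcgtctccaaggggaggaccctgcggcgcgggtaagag
The windows share 78 bases, read on opposite strands, and the GC box match just after each start site is the same stretch of DNA. With 37 and 33 CpG dinucleotides they are richer in CpG than most. The median over the genes of the table that have a window is 20, with the highest count taken for a gene with several.

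Col4a1 had a log2 fold change of 2.75 with a 95% interval of 1.72 to 3.78 and adjusted p = 1.41e-05 per the authors' deposited table. Col4a2 had 2.51 with an interval of 1.53 to 3.49 and adjusted p = 4.36e-05 per the authors' deposited table. The estimates differed by 0.24 on the log2 scale, less than the SE of either gene (0.52 and 0.50), and both are from the same libraries, so their errors are not independent. Per kb of exon, the implied level of Col4a1 went from 46.8 normalized counts in WT to 315.0 in Dot1l KO and that of Col4a2 from 22.6 to 128.6. The ratio of Col4a1 to Col4a2 per kb was 2.08 in WT and 2.45 in Dot1l KO.

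The other type IV chains belong to specialised membranes such as those of kidney and ear, and they were near the lower end of the table. Col4a4 (chromosome 1), which also starts back to back with its partner Col4a3, 72 bases apart, had 2.34 ± 1.13 with adjusted p = 0.264 at a mean of 6.13 per the authors' deposited table. Col4a5 (chromosome X), whose start site lies 1309 bases from that of Col4a6, had 0.64 ± 0.80 with adjusted p = 0.787 at a mean of 20.9 per the authors' deposited table. Since Col4a3 and Col4a6 are not analysed here, Col4a1 and Col4a2 are the only divergent pair with both partners measured.

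Among fibrillar collagens, Col1a1, Col1a2, Col3a1, Col5a1, Col5a2 and Col27a1 rose, and Col5a3 and the chains of types II and XI did not pass. Col1a2 (chromosome 6, 4504814 to 4541544) encodes the second chain of type I collagen, the main protein of bone and tendon; its log2 fold change was 4.03 ± 0.76 with adjusted p = 1.09e-05 per the authors' deposited table. Its partner Col1a1 (chromosome 11, 94936224 to 94953042) had 1.41 ± 0.39 with adjusted p = 0.00895 per the authors' deposited table. The 95% intervals, 2.54 to 5.53 for Col1a2 and 0.64 to 2.18 for Col1a1, did not overlap; the difference itself was not tested. Col1a1 was the more abundant chain throughout, at an implied 60.5 times the level of Col1a2 per kb of exon in WT and 9.79 times in Dot1l KO. Col1a2 had a mean of only 41.2 and an implied WT level of 4.73 normalized counts, against 151 for Col1a1. The WT ratio therefore rests on few reads. Both ratios also depend on the exon bases used, 12426 for Col1a2 and 6563 for Col1a1.

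Col3a1 (chromosome 1, 45311538 to 45349706), the chain of the thin fibrils that accompany type I, had 3.91 ± 1.26 with adjusted p = 0.0334 at a mean of 16.1 per the authors' deposited table. Col5a2 (chromosome 1, 45374321 to 45503282), which sits tail to tail with Col3a1 at a distance of 24614 bases, had the largest estimate of the collagen genes, 5.02, but with an SE of 1.70 and adjusted p = 0.0477 per the authors' deposited table. The SE of Col5a2 was above those of 100% of the 500 genes nearest in mean count, whose median SE was 0.53. Both genes missed the threshold with fold changes centred within bins of mean count, at adjusted p = 0.0937 for Col3a1 and for Col5a2. Col5a2 also missed it when p-values were adjusted over genes with a mean of at least 50 alone, at adjusted p = 0.0541.

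Col5a1 (chromosome 2, 27886425 to 28039514) makes the chain that starts fibril growth together with Col5a2. It was far more abundant, with a mean of 799 normalized counts, and had 1.08 ± 0.33 with adjusted p = 0.0210 per the authors' deposited table. Col27a1 (chromosome 4, 63214004 to 63334991), a cartilage collagen of the fibrillar class, had 1.25 ± 0.36 with adjusted p = 0.0133 per the authors' deposited table. It too missed the threshold with centring within bins, at adjusted p = 0.0838. Col5a3, at 0.81 ± 0.52 with adjusted p = 0.477 per the authors' deposited table, did not pass although its mean of 474 was above those of 5 of the 6 fibrillar genes that rose. The chains typical of cartilage fibrils had Col2a1 at 0.11 ± 0.36 and Col11a1 at 0.61 ± 0.46 per the authors' deposited table, with adjusted p of 0.939 and 0.581. Col11a2, at 0.60 ± 0.75 per the authors' deposited table, had adjusted p = 0.786.

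Of the 6 type VI genes, 3 rose. Col6a4, Col6a5 and Col6a6 encode alternative long chains and lie side by side on the minus strand of chromosome 9 (105687809 to 106096783), with 27917 bases between Col6a6 and Col6a5 and 28810 between Col6a5 and Col6a4. These are the 3 that rose. Their start sites are 132483 and 136140 bases apart, so each has a promoter of its own. Their windows are shown for comparison with the type IV pair, with the same marking.
Col6a6, chr9:105828036-105828335, minus strand: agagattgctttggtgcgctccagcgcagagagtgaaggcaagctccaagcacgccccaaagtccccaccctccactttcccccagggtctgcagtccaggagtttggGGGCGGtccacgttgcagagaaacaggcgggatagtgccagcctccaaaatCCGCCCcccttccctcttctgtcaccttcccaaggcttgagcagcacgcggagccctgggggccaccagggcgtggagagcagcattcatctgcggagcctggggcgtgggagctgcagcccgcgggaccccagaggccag
Col6a5, chr9:105960594-105960893, minus strand: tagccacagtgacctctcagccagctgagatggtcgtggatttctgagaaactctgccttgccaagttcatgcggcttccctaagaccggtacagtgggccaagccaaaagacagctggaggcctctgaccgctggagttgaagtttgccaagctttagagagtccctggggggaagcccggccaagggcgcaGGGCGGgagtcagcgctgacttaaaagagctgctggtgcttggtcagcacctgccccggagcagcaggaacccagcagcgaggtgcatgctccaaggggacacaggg
Col6a4, chr9:106096642-106096941, minus strand: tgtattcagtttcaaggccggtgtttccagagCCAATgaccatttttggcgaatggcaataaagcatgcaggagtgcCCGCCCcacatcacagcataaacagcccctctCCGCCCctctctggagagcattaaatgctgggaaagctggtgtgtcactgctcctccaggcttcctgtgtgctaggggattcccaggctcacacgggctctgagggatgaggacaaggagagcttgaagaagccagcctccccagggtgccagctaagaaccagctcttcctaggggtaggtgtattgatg
The windows hold 14, 10 and 5 CpG dinucleotides in this order, fewer than those of the type IV pair.

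Col6a5 had a log2 fold change of 1.71 ± 0.34 with adjusted p = 5.70e-05 at a mean of 242 per the authors' deposited table. Col6a6 had 1.93 ± 0.49 with adjusted p = 0.00297 at a mean of 37.8 per the authors' deposited table. Col6a4, whose protein is made in mouse while the human gene is broken, had 1.18 ± 0.30 with adjusted p = 0.00275 at a mean of 215 per the authors' deposited table. The 95% intervals of these 3 genes overlapped. The implied levels per kb of exon went from 12.1 to 39.3 normalized counts for Col6a5, from 15.5 to 35.0 for Col6a4 and from 1.72 to 6.54 for Col6a6.

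The chains of the common type VI trimer did not pass, and the difference between them and the alternative chains was not tested. The 95% intervals of Col6a1 and Col6a3 overlapped those of the 3 genes that rose. That of Col6a2, -0.73 to 0.78, overlapped that of Col6a4, 0.59 to 1.76, but not those of Col6a5 and Col6a6. Col6a2 (chromosome 10) had 0.02 ± 0.38 with adjusted p = 0.990 at a mean of 85.3 per the authors' deposited table. Col6a1, its neighbour on the same strand of chromosome 10, had 1.33 ± 0.80 with adjusted p = 0.437 at a mean of 13.9 per the authors' deposited table. For Col6a3 (chromosome 1) the authors' deposited table lists 4.06 ± 1.73 with adjusted p = 0.172 at a mean of 5.69. Its implied WT level of 0.645 normalized counts per library is under a floor of 3 reads over the group, taken as 1 normalized count per library, so no fold is given. In both genotypes the alternative chains Col6a4 and Col6a5 stood above Col6a1, Col6a2 and Col6a3 per kb of exon.

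The multiplexins, collagens with an interrupted helix that sit at basement membranes, went in opposite directions. Col18a1 (chromosome 10, 77052178 to 77166548), whose C-terminal fragment is endostatin, was by far the most abundant collagen RNA, with a mean of 11428 normalized counts. Its log2 fold change was -0.85 ± 0.28 with a 95% interval of -1.41 to -0.30 and adjusted p = 0.0420 per the authors' deposited table. It lost the call with centring within bins, at adjusted p = 0.220. Col15a1 (chromosome 4, 47208161 to 47313167), its closest relative, had a mean of only 19.4 and rose, at 2.90 ± 0.80 with adjusted p = 0.00747 per the authors' deposited table. Of the 6206 genes with a mean of at least 1000 normalized counts, 2.08% fell and 0.435% rose, 2.51% in either direction; among the 3 collagen genes above that mean, Col18a1 fell, Col4a1 rose and Col9a2 did not pass. Col18a1 has a pair of annotated start windows, and the upstream one is shown beside that of Col15a1 because these relatives went apart.
Col18a1, chr10:77166481-77166780, minus strand: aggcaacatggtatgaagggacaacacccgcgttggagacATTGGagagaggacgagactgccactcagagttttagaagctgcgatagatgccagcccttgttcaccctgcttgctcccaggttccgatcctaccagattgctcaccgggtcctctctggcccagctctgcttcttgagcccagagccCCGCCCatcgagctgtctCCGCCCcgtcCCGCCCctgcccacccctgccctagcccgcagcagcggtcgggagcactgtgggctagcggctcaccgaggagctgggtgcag
Col15a1, chr4:47207762-47208061, plus strand: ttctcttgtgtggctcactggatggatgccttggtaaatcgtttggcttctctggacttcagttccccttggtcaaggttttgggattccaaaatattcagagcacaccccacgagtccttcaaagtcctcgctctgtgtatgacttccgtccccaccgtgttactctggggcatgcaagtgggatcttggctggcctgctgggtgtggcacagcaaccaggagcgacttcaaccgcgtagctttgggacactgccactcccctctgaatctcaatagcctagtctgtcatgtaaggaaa
Col15a1 had 0 matches to the motifs searched and 8 CpG dinucleotides in its window. That window is set on a RefSeq start at 47208012 and ends before the GENCODE start at 47208161. The count of matches therefore depends on which start is used. Col18a1 had 3 GC box matches, 1 CCAAT match and 16 CpG dinucleotides in the window shown, and 0 matches and 6 CpG dinucleotides in its other one (chr10:77113656-77113955, minus strand).

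The summed collagen RNA was near that of WT although 13 genes rose. Col18a1 made up an implied 70.9% of collagen normalized counts per kb of exon in WT and 42.2% in Dot1l KO. Summed over all 36 genes, the implied level per kb was 0.93 times that of WT in Dot1l KO, and without Col18a1 it was 1.84 times. The share of Col4a1 went from 1.58% to 11.5%. By class, the implied sum per kb in Dot1l KO was 6.23 times that of WT for type IV, 1.97 times for the fibrillar genes, 2.34 times for type VI and 1.03 times for the fibril-associated class.

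**Figure D3:**
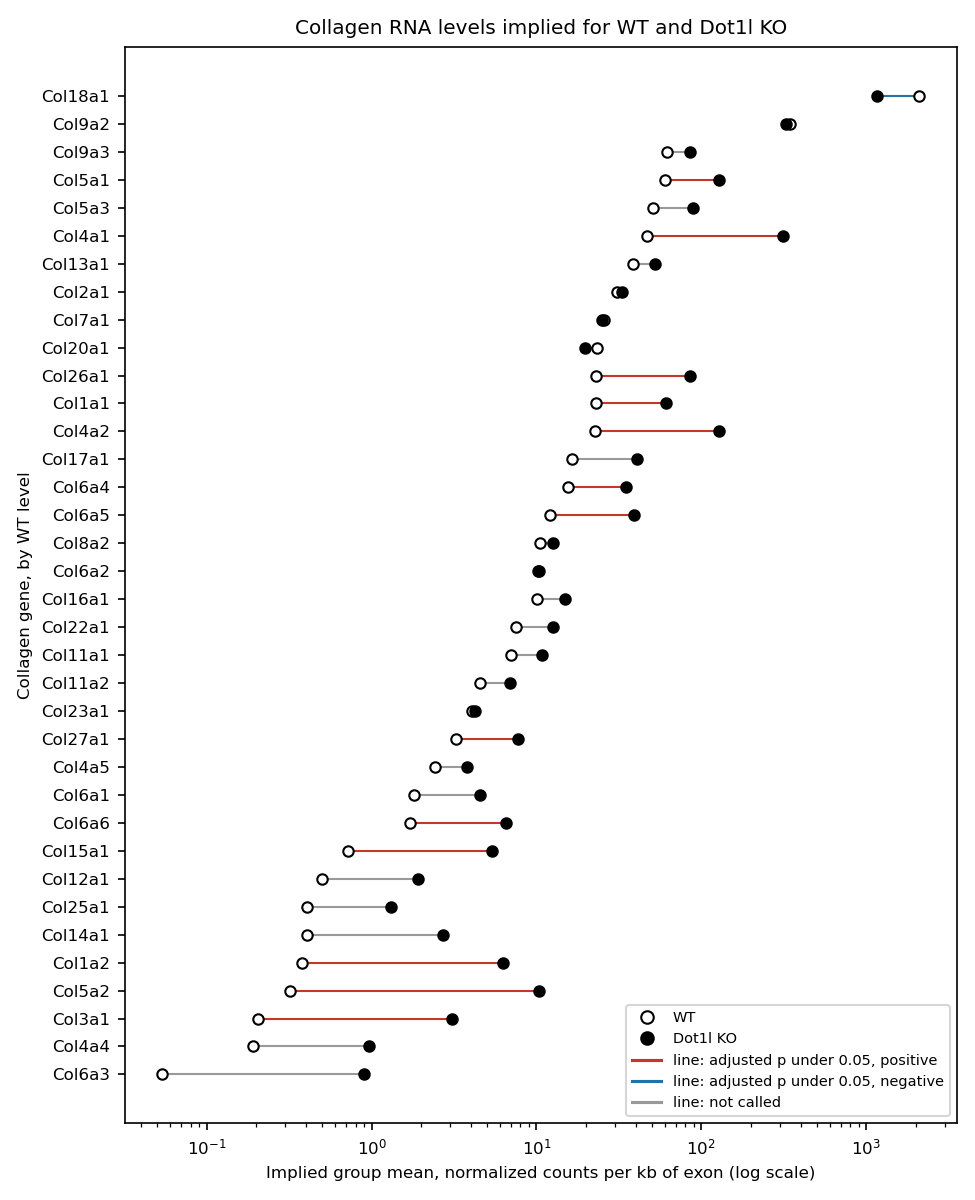
Implied group means in normalized counts per kb of exon (x axis, log scale) for WT (open circles) and Dot1l KO (filled circles), ordered by WT level, with lines coloured by call. Col18a1 is highest in both genotypes, and Col4a1 moves from 46.8 to 315.0.

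Col26a1 (chromosome 5, 136741759 to 136883209), a small collagen described in testis and ovary, had the smallest p of the family. Its log2 fold change was 1.90 ± 0.27 with adjusted p = 3.41e-10 at a mean of 445 per the authors' deposited table, and its implied level per kb of exon went from 23.1 to 85.9 normalized counts. Col7a1, the anchoring fibril collagen of skin, had -0.04 ± 0.36 with adjusted p = 0.980 per the authors' deposited table.

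The fibril-associated collagens with interrupted helices (FACIT) and the transmembrane collagens had 0 genes past the threshold in DESeq2 among 7 and 4. Since 5.34% of all genes rose, and 9.24% of those below the median mean, 0 among so few does not set these classes apart. At an unadjusted p under 0.05, each class had 2 positive and 0 negative members. At that p, 2078 of all 19564 genes tested were positive and 1085 negative. Of the 9781 genes below the median mean, 1792 were positive and 229 negative. Col9a2, the second most abundant collagen RNA per kb of exon and part of the cartilage collagen type IX, had -0.09 ± 0.38 with adjusted p = 0.950 per the authors' deposited table. Its partner Col9a3 had 0.48 ± 0.32 with adjusted p = 0.504 per the authors' deposited table; 234 exon bases of Col9a3 overlap the gene Tcfl5 on the opposite strand. Col20a1 had -0.25 ± 0.50 with adjusted p = 0.886 per the authors' deposited table. Col12a1 and Col14a1, which coat type I fibrils, had wide estimates at 1.93 ± 0.74 and 2.73 ± 1.06 with adjusted p of 0.105 and 0.107 per the authors' deposited table. Col16a1 had 0.58 ± 0.47 and Col22a1 0.74 ± 0.40 per the authors' deposited table, with adjusted p of 0.619 and 0.345.

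Of the transmembrane chains, Col17a1, a hemidesmosome protein of epithelia, had 1.30 ± 0.56 with adjusted p = 0.175 per the authors' deposited table. Col13a1 had 0.45 ± 0.31 with adjusted p = 0.529, Col23a1 0.08 ± 0.61 with adjusted p = 0.976, and Col25a1 1.68 ± 0.85 with adjusted p = 0.299 per the authors' deposited table. The short-chain collagen Col8a2, found under the cornea's endothelium, had 0.25 ± 0.45 with adjusted p = 0.867 per the authors' deposited table.

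The spread behind these values was uneven. For each gene, its SE was set beside those of the 500 genes nearest in mean count. Col4a1 stood at percentile 98.4 and Col4a2 at 93.8, although both are well expressed, and Col3a1 stood at 96.2. Col26a1 at percentile 9.80 and Col6a4 at 5.80 were measured with less spread than most genes of their level. Without values per sample, whether a wide SE comes from 1 library or from all of them cannot be told apart.

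Of the 52 tested protein-coding genes nearest to a collagen gene on either side, outside the family, 1 rose and 0 fell in the DESeq2 test. This stands beside 5.34% and 1.25% of all genes, and 1.43% and 1.9% of those at or above the median mean. The median mean of the neighbours was 922 normalized counts, so these counts do not set them apart. Their median log2 fold change was -0.03, and at an unadjusted p under 0.05, 2 were positive and 1 negative. At that p, 2078 of all 19564 genes tested were positive and 1085 negative. Of the 9783 genes at or above the median mean, 286 were positive and 856 negative. The comparison with neighbours was added after the collagen values were seen. For the type IV pair, Irs2 had -0.11 ± 0.34 and Rab20 1.03 ± 0.60 per the authors' deposited table, with adjusted p of 0.931 and 0.403. For the chromosome 9 cluster, Pik3r4, which ends 151 bases from Col6a6, had -0.10 ± 0.23 and Glyctk -0.04 ± 0.38 per the authors' deposited table, with adjusted p of 0.90 and 0.982. The exception was Tmem92 (chromosome 11, 94777217 to 94782703), 153520 bases before Col1a1 and on the other strand, at 5.20 ± 0.90 with adjusted p = 1.03e-06 per the authors' deposited table. On the other side of Col1a1, Sgca had -0.30 ± 1.07 with adjusted p = 0.942 per the authors' deposited table.

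**Figure D4:**
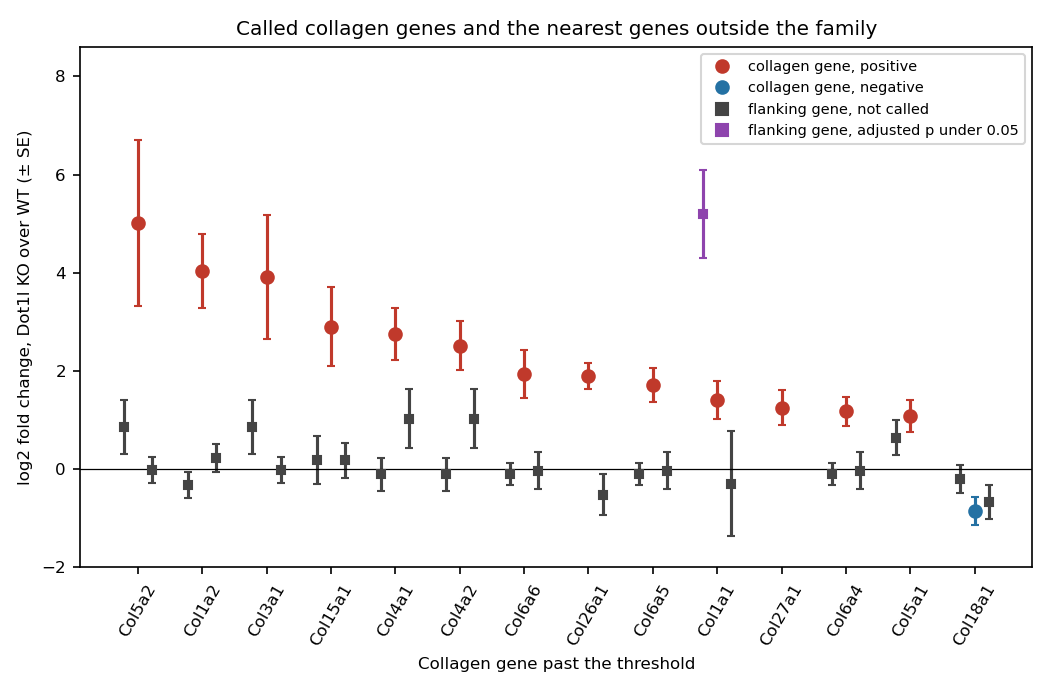
Log2 fold change ± SE (y axis) of the 14 collagen genes past the threshold (circles) and of the nearest tested genes outside the family on either side (squares), which are absent where not analysed. Of the flanking genes, Tmem92 beside Col1a1 at 5.20 is past the threshold.

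RefSeq windows were found for 28 of the 36 collagen genes, not for Col1a1, Col2a1, Col5a2, Col9a3, Col12a1, Col14a1, Col22a1 and Col26a1. A GC box match was present in 71.4% of these 28 genes and in 64.1% of all 12885 genes of the table with a window. For the CCAAT box the shares were 42.9% and 42.6%, for the TATA box 14.3% and 9.25%, and for the GATA motif 7.14% and 8.21%. Among the 10 collagen genes that rose and have a window, 8 had a GC box match, 4 a CCAAT box, 1 a TATA box and 0 a GATA motif. The median CpG count per gene was 14 in collagen genes and 20 in all genes, with the highest count taken for a gene with several windows. A match describes letters only, and a gene with several windows counts once if any holds it.

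Of 33 genes for folding, secreting and processing collagen, 0 rose and 1 fell in the DESeq2 test, beside 5.34% and 1.25% of all genes. The median mean was 2033 normalized counts in the folding list, 1187 in the secretion list and 146 in the processing list. At or above the table's median mean of 278, 1.43% of all such genes rose and 1.9% fell. Counts this small do not set these lists apart. Of the 17 genes for folding and modifying collagen in the endoplasmic reticulum, 0 rose and 1 fell, with a median log2 fold change of -0.08. The one that fell was P3h4, which works with prolyl and lysyl hydroxylases on collagen, at -1.41 ± 0.42 with adjusted p = 0.0181 per the authors' deposited table. The collagen chaperone gene Serpinh1 had 0.30 ± 0.31 with adjusted p = 0.726 per the authors' deposited table. Fkbp10, of the same list, had -1.06 ± 0.41 with adjusted p = 0.107 per the authors' deposited table. Among 9 secretion genes 0 passed, with Trappc2 at 0.72 ± 0.27 and adjusted p = 0.101 per the authors' deposited table. Among 7 genes for processing procollagen ends 0 passed, with Adamts3 at 1.74 ± 0.86 and adjusted p = 0.277 per the authors' deposited table. At an unadjusted p under 0.05, these 3 lists had 0, 1 and 1 positive members and 3, 0 and 0 negative ones. At that p, 2078 of all 19564 genes tested were positive and 1085 negative. Of the 9783 genes at or above the median mean, 286 were positive and 856 negative.

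Counts in the lists of genes that act outside the cell were small, and they stand beside 5.34% of all genes that rose and 9.24% of those below the median mean. At an unadjusted p under 0.05, 2078 of all 19564 genes tested were positive and 1085 negative. Of the 9781 genes below the median mean, 1792 were positive and 229 negative. In the crosslinking list, 1 of 7 rose, the lysyl oxidase relative Loxl1, at 1.18 ± 0.30 with adjusted p = 0.0036 per the authors' deposited table. In the receptor list, 1 of 11 rose, Ddr2, a receptor kinase that is switched on by fibrillar collagen. Its log2 fold change was 4.16 ± 0.48 with adjusted p = 2.45e-15 per the authors' deposited table, and its implied mean went from 36.0 to 642.3 normalized counts. Its relative Ddr1, with a mean of 1522, had -0.27 ± 0.30 and the shared integrin chain Itgb1 had 0.00 ± 0.33 per the authors' deposited table, with adjusted p of 0.750 and 0.998. Another integrin chain, Itga1, had -1.75 ± 0.62 with adjusted p = 0.0632 per the authors' deposited table. The receptor list had 5 positive members and 1 negative at an unadjusted p under 0.05. Of 9 genes for collagen breakdown 0 passed, and Mmp14 had the smallest p at -0.94 ± 0.38 with adjusted p = 0.130 per the authors' deposited table; at an unadjusted p under 0.05 the list had 1 positive and 1 negative member. Of 15 matrix proteins that sit on fibrils or beside them, 3 rose and 0 fell, also 0 at an unadjusted p under 0.05. They were the proteoglycan Bgn at 3.67 ± 0.92, thrombospondin Thbs1 at 2.51 ± 0.67 and the microfibril protein Fbn2 at 1.24 ± 0.40 per the authors' deposited table.

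Markers of primitive and parietal endoderm were higher beside the type IV chains. Of the 11 tested, 8 rose and 0 fell, also 0 at an unadjusted p under 0.05, with a median log2 fold change of 2.43. This stands beside 5.34% and 1.25% of all genes, and 9.24% and 0.593% of those below the median mean. At an unadjusted p under 0.05, 2078 of all 19564 genes tested were positive and 1085 negative. Of the 9781 genes below the median mean, 1792 were positive and 229 negative. The smallest p-values were those of Dab2 at 2.75 ± 0.43 and Cubn at 3.73 ± 0.61 per the authors' deposited table. The summed implied level of the list went from 451 to 1495 normalized counts. Gata4, Amn and Pth1r did not pass. The same shares stand beside the marker lists that follow, where 1 of 6 or 1 of 7 at the adjusted threshold does not set a list apart. Of fibroblast markers 1 of 7 rose, Thy1 at 1.25 ± 0.34 per the authors' deposited table, and their sum went from 1706 to 2210. At an unadjusted p under 0.05, 1 was positive and 1 negative, the latter Acta2 at -2.25 ± 0.84 with adjusted p = 0.0926 per the authors' deposited table; Pdpn had -0.95 ± 0.51 and Twist1 -0.12 ± 0.37 per the authors' deposited table, with adjusted p of 0.351 and 0.931. Of this list, Fap, Twist2, Prrx1, S100a4 and Tcf21 are not analysed here. Of cartilage markers 1 of 6 rose, the proteoglycan Acan at 2.60 ± 0.38 per the authors' deposited table, and the sum went from 158 to 667. Acan alone went from 96.7 to 587, and the other 5 markers together from 61.5 to 80.0. Of endothelial markers 1 of 7 rose, Kdr at 2.19 ± 0.61 per the authors' deposited table, and the sum went from 3313 to 4332. The highest mean in this list was 3251, so that sum rests mostly on 1 gene. Of epithelial markers 2 of 7 rose, Krt8 at 0.99 ± 0.29 and Trp63 at 3.61 ± 1.21 per the authors' deposited table, with a sum from 22541 to 20745. At an unadjusted p under 0.05, the cartilage, endothelial and epithelial lists had 1, 4 and 3 positive members and 0 negative ones. The part of these cell types in the collagen values was not tested, and in bulk RNA more cells of a type and more RNA per cell cannot be told apart.

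**Figure D5:**
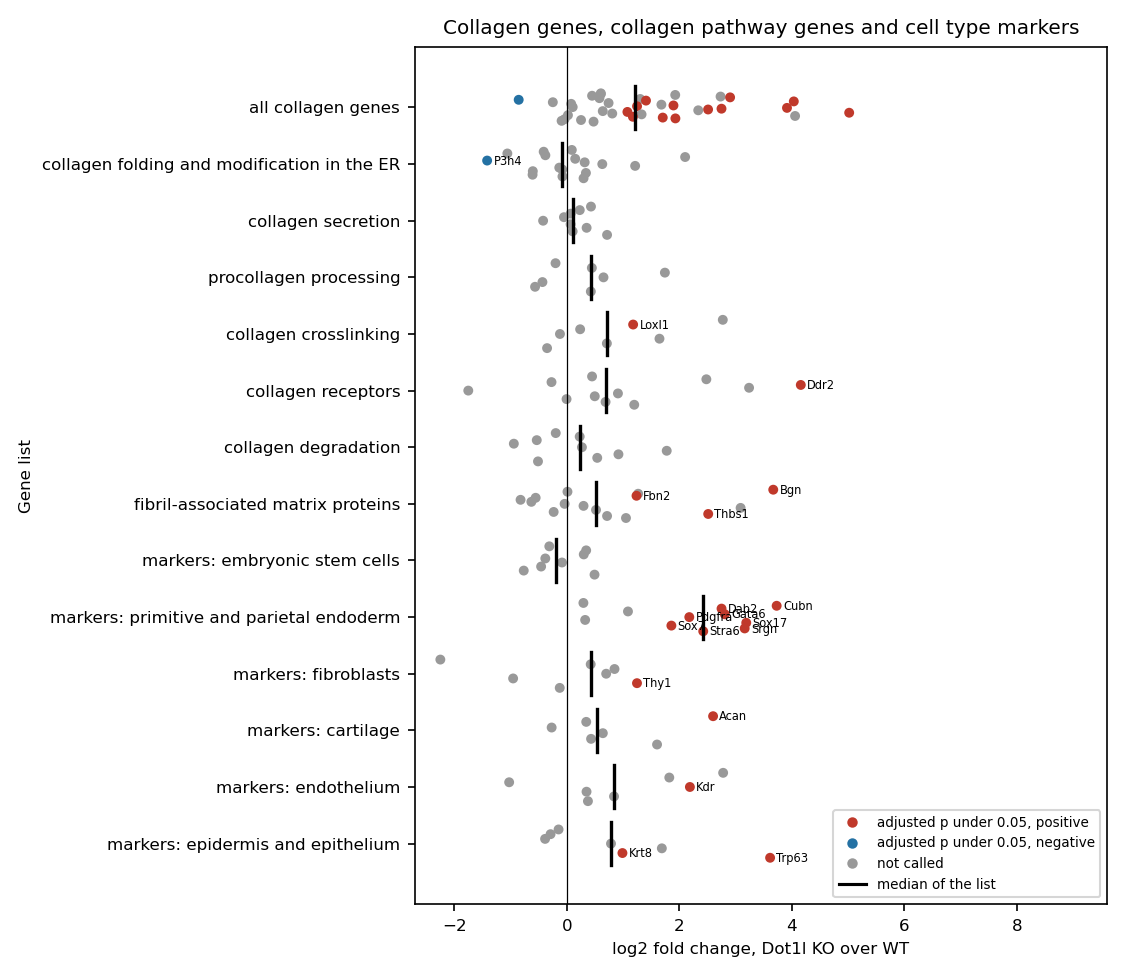
Log2 fold changes (x axis) of the collagen genes, of 7 lists of collagen pathway genes and of 6 lists of cell type markers (rows), with a point for each gene, coloured by call, and a bar for the median of each list. The collagen median of 1.21 and the endoderm marker median of 2.43 stand to the right of the folding list at -0.08.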

How the data were processed

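The values are the authors' own comparison of 3 Dot1l KO with 3 WT samples. Per the submitters' processing notes, reads were aligned with HISAT2 2.1.0 to mm10, counted with featureCounts 2.0.0 and compared with DESeq2, with version, strand and multi-mapping settings not given in the sources used here. Per the file headers, the deposited mean signal is a count divided by size factors, averaged over the libraries. Per the file headers, effects are on a log2 scale with an SE, the score is the Wald statistic and the p-value has a Benjamini-Hochberg adjustment. Recomputing the score and the adjustment gave the same values; 7 of 19571 genes had no p. Depth per sample is unknown, so no counting interval was computed.

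The planned edgeR or limma fit needs values per sample, so the authors' test was used at an adjusted p under 0.05. Intervals are the estimate with its SE at 95%. Coordinates, exon bases (all exons merged) and neighbours come from GENCODE M21. Python 3.11.15, pandas 2.3.3 and scipy 1.17.1 were used. Centring on the median of all genes and implied levels were tested on simulated data, while centring within bins was not. Named genes are every collagen that passed, up to 3 of the most abundant of each class that did not, neighbour pairs, and from each list at most 2 that passed in each direction or the one with the smallest p; others were named after their values were seen. The members and lists were chosen with earlier results of these data known. Transposable elements are not used here beyond the sign of MERVL-int, since copies carry no coordinates. Alternatives were a stricter threshold, a minimum fold change, centring on the median of all genes or within bins, a mean of at least 50 and Bonferroni adjustment.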

Additional observations from a re-analysis of the deposited data

How the results depend on the processing

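Of the 14 collagen genes called, 5 kept their call under every alternative that could test them, namely Col26a1, Col1a2, Col4a1, Col4a2 and Col6a5. The count of 13 rises became 9 at an adjusted p under 0.01, 13 with an absolute log2 fold change of at least 1, 13 with centring on the median of the table, 10 with centring within 20 bins of mean count, 8 with p-values adjusted again over genes with a mean of at least 50, where Col5a2 of the 9 called there is lost (adjusted p = 0.0541), and 5 with Bonferroni adjustment. The fall of Col18a1 was called with centring on the median and with a mean of at least 50, and the count of falls was 0 under the other 4 alternatives, for the multiplexin class as well. The 6 fibrillar rises became 2 at an adjusted p under 0.01, 3 with centring within bins, 3 with a mean of at least 50 and 1 with Bonferroni adjustment. Type VI rises went from 3 to 2 with a mean of at least 50, where Col6a6 is not tested, and to 1 with Bonferroni adjustment, and the multiplexin rise, Col15a1, went to 0 with Bonferroni adjustment and with a mean of at least 50, where it is not tested. Type IV kept its 2 rises under all 6. Centring within bins turned the sign of 4 genes that were not called, to 0.0725 for Col9a2, -0.0656 for Col8a2, -0.205 for Col6a2 and -0.31 for Col23a1. The cause of these changes was not tested.

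No paired analysis was possible because the table holds no values per sample, and for the same reason leaving out each replicate, other size factors and other count tests were not run. The comparison of element copies near collagen genes was not run either, since copies carry no coordinates. Depth per sample is unknown; at a mean under 50 the SE of collagen genes was between 0.49 and 1.73.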
